A study of Homo sapiens with 9 samples.

Results

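VCaP cells that received siCDO1C, a small interfering RNA (siRNA) against CDO1, were compared with VCaP cells that received a control siRNA (siCtrl). VCaP is an established prostate cancer cell line, and it is the only cell line in the experiment. The comparison takes 6 of the 9 libraries sequenced, 3 with siCDO1C and 3 with siCtrl, and the libraries were chosen by the siRNA given in their labels. The other 3 libraries received siCDO1A, a second siRNA against CDO1, and they serve here only for a direct comparison of the siRNAs. All cells were kept in 10% fetal bovine serum with 2 nM DHT, an androgen, so no library shows cells without androgen. The labels call the siCtrl cells WT and the siCDO1C cells CDO1 knockdown, name the libraries of each group biological replicates and give them the batch numbers 1, 2 and 3. The sequence of siCDO1C and the identity of the control siRNA are not given in the sources used here. Messenger RNA was measured by RNA-seq, and of the 58735 genes counted, 15555 had enough reads to be tested.

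CDO1 encodes cysteine dioxygenase, the iron enzyme that oxidizes cysteine to cysteine sulfinate, the first step towards taurine and sulfate. Cysteine that is not oxidized can go into protein or into glutathione, the main thiol of the cell, and cells also import it as cystine through the exchanger whose transport subunit is SLC7A11. An siRNA guides the argonaute complex to a messenger RNA that it matches over its whole length, and it can also lower other transcripts whose 3′ untranslated region (3′UTR) matches only the first bases of the guide, the seed. The endoplasmic reticulum (ER) folds secreted and membrane proteins with chaperones and disulfide isomerases, whose genes are raised by the unfolded protein response when folding falls behind.

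The siCDO1C libraries held from 12061295 to 14537158 counts and the siCtrl libraries from 12554626 to 16073698. Levels are given in CPM, read counts scaled to a common library total after TMM scaling, which corrects for differences in library composition. A count of 0 allows a level of up to 0.249 CPM, which is 3 counts in the smallest of the 6 libraries, and this limit covers counting error only. The siCDO1C libraries did not resemble each other equally. Over 11337 genes with at least 5 CPM, the root mean square log2 difference was 0.164 between siCDO1C replicates 1 and 3, within the range of the siCtrl pairs (0.156 to 0.174), whereas replicate 2 lay 0.271 and 0.286 from the other siCDO1C libraries. Replicate 2 lay no nearer to siCtrl, at 0.292 to 0.316 from its libraries, against 0.239 to 0.261 for replicates 1 and 3. The biological coefficient of variation within siCDO1C was 10.8% with replicate 2 and 4.52% without it, against 5.26% within siCtrl. Genes of ribosomal proteins took 7.825% of the counts of replicate 2, 6.75% and 6.511% of those of replicates 1 and 3, and from 6.679% to 6.9% in siCtrl. In the siCDO1A libraries they took 7.517%, 7.588% and 6.91%, so that a high share was not particular to siCDO1C replicate 2. The part of this share in the results was not tested. The counts of changed genes and of called list members are therefore given with and without siCDO1C replicate 2. Values of single genes without it are given only for some genes.

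CDO1 (ENSG00000129596) stood at 14.2, 14.1 and 13.7 CPM in the siCtrl libraries and at 1.10, 2.81 and 1.16 CPM in siCDO1C replicates 1, 2 and 3. The groups did not overlap, and replicate 2 kept more CDO1 messenger RNA than the other siCDO1C libraries. Relative to the mean of siCtrl, CDO1 was reduced by 87.9% ± 6.98 (SD, n = 3), that is by 92.2%, 79.9% and 91.7% in the single libraries (two-sided exact permutation test, p = 0.1, the smallest that 3 libraries against 3 allow). In the fit across all genes, the log2 fold change was -3.05 (standard error 0.239, adjusted p = 3.9e-06 by the quasi-likelihood test of edgeR) with all 6 libraries and -3.63 without replicate 2. Of the short sequences described below for other genes, TACATCA and ACATCAA overlap each other at positions 394 and 395 of the CDO1 coding sequence, counted from its first base, in exon 3 of 5 of the transcript used. The window around TACATCA, shown because CDO1 is the gene targeted, spans an exon junction and has the match in capitals. The siRNA sequence is not given, so whether siCDO1C pairs with this window was not tested.
CDO1 coding sequence, GRCh37 chr5:115142208-115146878 with an intron inside, minus strand: accagtgtgccTACATCAatgattccatt
The 3′UTR of CDO1 holds neither TACATCA nor ACATCAA. Of the other sequences described below, CATCAAA and GCAGTACA are nowhere in the CDO1 transcript used.

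With siCDO1C, 742 genes passed an adjusted p of 0.05, 4.77% of the genes tested, and 353 of them were higher (2.27%) and 389 lower (2.50%). Most changes were small. The median absolute log2 fold change of the changed genes was 0.46, and 58 genes moved by more than 1 on the log2 scale, 27 upwards and 31 downwards. In each of the 742 genes the siCDO1C libraries lay wholly above or below the siCtrl libraries, as they did in 24.2% of all genes tested. The difference therefore had the same sign in all 3 batches, which adds nothing to the separation. Without siCDO1C replicate 2, 2068 genes passed (13.3%), 1054 higher (6.78%) and 1014 lower (6.52%). Of the 742 genes, 736 passed again in the same direction, 6 passed only with replicate 2, and 1332 passed only without it. The number of changed genes fell to between 263 and 279 when 1 of the siCtrl libraries was left out. It was 368 without siCDO1C replicate 1 and 546 without siCDO1C replicate 3. Counts of list members called in these fits, given below, are to be read beside these lower totals.

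Replicate 2 was close to the other siCDO1C libraries in the genes that passed both ways. The genes higher in both fits had a median log2 difference from the siCtrl mean of 0.45, 0.47 and 0.46 in replicates 1, 2 and 3, and the genes lower in both had -0.47, -0.47 and -0.43. Its medians were nearer to 0 in the genes that passed only without it, where the higher genes had 0.29, 0.09 and 0.27 and the lower genes -0.27, -0.12 and -0.25. Of these 1332 genes, replicate 2 lay beyond all siCtrl libraries in the same direction for 737 and on the other side of the siCtrl mean for 424. These medians follow in part from the choice of the genes by the same libraries and are given as a description.

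**Figure D1:**
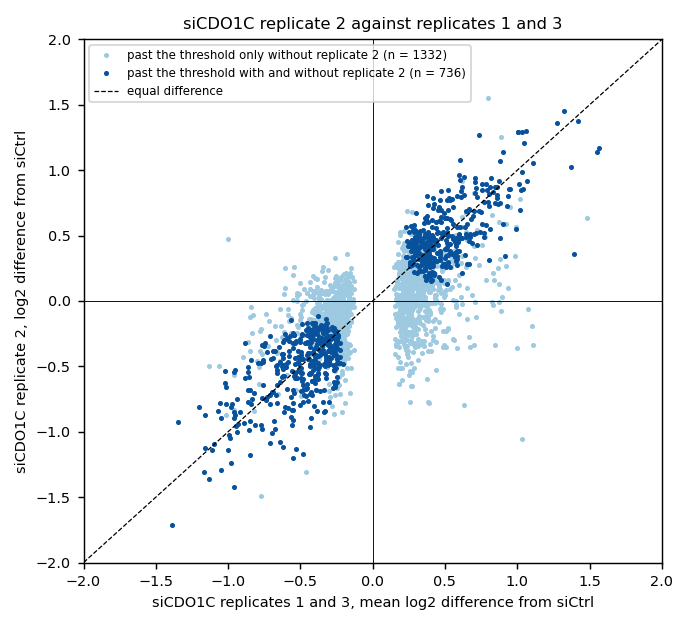
Each point is a gene that passed the threshold without siCDO1C replicate 2, placed by the mean log2 difference of replicates 1 and 3 from the siCtrl mean (horizontal) and by that of replicate 2 (vertical), both on log2(CPM + 0.5), with 2 genes outside the axes. The 736 genes that also passed with replicate 2 lie along the dashed line of equal difference, and the 1332 others spread to both sides of 0 on the vertical axis.

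The 12 protein-coding genes with the largest rises included HIPK3, F2R, CHPF, ALCAM, TBC1D10C, RGS4, C19orf57, TGFB2, YWHAH, SAR1B and ELN. The annotated 3′UTRs of 7 of the 12 hold the sequence GCAGTACA, and these windows are shown because 227 of the 12965 tested genes with a 3′UTR (1.75%) hold it at all. Each window is given 5′ to 3′ on the strand of the transcript with the match in capitals, read from GENCODE transcripts of GRCh37.
CHPF, chr2:220403819-220403848, minus strand: cacgtatttatGCAGTACAgtctgcctgac
HIPK3, chr11:33377269-33377298, plus strand: agtaaaaaccaGCAGTACAtttttagtcac
F2R, chr5:76030629-76030658, plus strand: atgaaaacaatGCAGTACAggacatatatt
ALCAM, chr3:105294388-105294417, plus strand: taatttatcaaGCAGTACAtgaaagtgtaa
SAR1B, chr5:133942342-133942371, minus strand: gcaactttccaGCAGTACAtttgaagcact
TGFB2, chr1:218617182-218617211, plus strand: tgtgttaatcaGCAGTACAatttgatcgtt
YWHAH, chr22:32353147-32353176, plus strand: tgtttcgttaaGCAGTACAtcttgtgcatg
The windows share the match and differ in most of the bases around it, although HIPK3 and SAR1B have the same 3 bases on each side of it.

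HIPK3, a nuclear serine/threonine kinase, stood at 31.6, 31.8 and 28.2 CPM in siCtrl and at 88.3, 67.8 and 92.7 CPM in siCDO1C, a log2 fold change of 1.44 (standard error 0.113, adjusted p = 3.9e-06). F2R, the thrombin receptor PAR1, went from 24.0, 27.0 and 25.7 CPM to 70.8, 67.3 and 67.7 CPM (1.42, standard error 0.0854, adjusted p = 3.3e-07). CHPF, which polymerizes chondroitin chains, went from 40.6, 43.3 and 43.0 CPM to 113, 116 and 101 CPM (1.37, standard error 0.0822, adjusted p = 3.3e-07). Every siCDO1C library held more than 2 times the highest siCtrl level of these 3 genes, and replicate 2 was the lowest only for HIPK3 and F2R. ALCAM, an adhesion molecule of the immunoglobulin family, rose from 17.7, 18.9 and 17.8 CPM to 44.2, 47.4 and 45.2 CPM (1.32, standard error 0.0902, adjusted p = 1.3e-06). SAR1B (GRCh38 chromosome 5, 134601144 to 134649271), the GTPase that starts the COPII coat of vesicles leaving the ER, rose from 36.1, 31.5 and 32.3 CPM to 69.2, 77.4 and 69.2 CPM (1.10, adjusted p = 3.9e-06). YWHAH (GRCh38 chromosome 22, 31944461 to 31957603), a 14-3-3 adaptor protein, rose from 39.1, 39.7 and 38.2 CPM to 81.6, 96.4 and 79.0 CPM (1.13, adjusted p = 3.9e-06). For these 3 genes replicate 2 was the highest of the siCDO1C libraries.

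TGFB2, a ligand of the TGF-beta family, rose from no more than 4.83 CPM to at least 8.84 CPM (log2 fold change 1.18, adjusted p = 8.6e-04). ELN, which encodes elastin, rose from between 5.84 and 7.01 CPM to between 12.2 and 15.3 CPM (1.06, adjusted p = 5.8e-04). RGS4, a regulator of G-protein signalling, and C19orf57 rose by 1.26 and 1.20 from no more than 3.11 and 3.90 CPM (adjusted p = 8.9e-04 and 0.00113). These 4 genes and the 6 of the preceding paragraph kept their calls under every alternative fit, each single left-out library included. TBC1D10C was the exception. It stood at 2.26, 2.87 and 1.61 CPM in siCtrl and at 7.13, 2.97 and 6.11 CPM in siCDO1C, so that replicate 2 lay at the edge of siCtrl (1.28, adjusted p = 0.0336), and the call was lost without any 1 siCtrl library and without siCDO1C replicate 1 or 3 (adjusted p up to 0.173). The 11 named genes also passed without replicate 2, with log2 fold changes from 1.04 for YWHAH to 1.58 for TBC1D10C, which the rule of naming required.

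The 12 largest falls were those of CDO1, SLC7A11, PLPPR4, CCDC113, GPR27, COL5A2, CREB3L1, CDH2, SYTL5, ADM2, TGFBR2 and MOB1A. The sequence ACATCAA is in the 3′UTR of 7 of them, against 1324 of the 12965 tested genes with a 3′UTR (10.2%). It overlaps TACATCA and CATCAAA by 6 bases each, and the capitals mark ACATCAA alone. PLPPR4 holds ACATCAA at 2 places, of which the one farther along the 3′UTR is shown.
SLC7A11, chr4:139087392-139087420, minus strand: ataaaatttagACATCAAattttcctact
CCDC113, chr16:58314040-58314068, plus strand: atcaaaaacagACATCAAaacagcatggt
PLPPR4, chr1:99773228-99773256, plus strand: tgctttcttcaACATCAAaaattgtgtag
GPR27, chr3:71805195-71805223, plus strand: agcagagtactACATCAAaattgttttaa
CREB3L1, chr11:46342601-46342629, plus strand: cccaaacagacACATCAAcgcaccccact
TGFBR2, chr3:30733467-30733495, plus strand: gacaaggaaaaACATCAAatattcccagg
MOB1A, chr2:74379906-74379934, minus strand: cattctattctACATCAAaaatagtttgt
In GPR27 and MOB1A a T precedes the match and an A follows it, so that all 3 sequences overlap there.

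SLC7A11, the cystine transporter subunit, stood at 43.6, 43.0 and 38.4 CPM in siCtrl and at 14.8, 12.3 and 16.3 CPM in siCDO1C, a log2 fold change of -1.53 (standard error 0.113, adjusted p = 2.8e-06). MOB1A (GRCh38 chromosome 2, 74152528 to 74178898), a co-activator of the LATS kinases of the Hippo pathway, went from 131, 123 and 116 CPM to 52.8, 57.4 and 61.6 CPM (-1.11, standard error 0.0831, adjusted p = 2.8e-06). COL5A2, which encodes a chain of type V collagen, went from 50.3, 45.5 and 56.3 CPM to 22.5, 20.1 and 22.0 CPM (-1.24, standard error 0.101, adjusted p = 4.3e-06). The groups lay apart in these 3 genes, which the rule of naming required, and replicate 2 stood among or below its partners. SYTL5 (GRCh38 chromosome X, 38006582 to 38128819), which binds Rab GTPases on vesicles, fell from between 39.6 and 42.7 CPM to between 16.4 and 21.4 CPM (-1.15, adjusted p = 1.6e-05). CREB3L1, an ER-bound transcription factor related to ATF6, fell from 12.5, 15.4 and 12.5 CPM to 6.44, 5.78 and 5.45 CPM (-1.19, adjusted p = 2.8e-04). GPR27, an orphan G-protein coupled receptor, went from 10.9, 12.3 and 11.2 CPM to 3.22, 5.78 and 5.45 CPM (-1.27, adjusted p = 9.8e-04).

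CCDC113 and PLPPR4 fell by 1.29 each (adjusted p = 2.5e-04 and 0.00265). ADM2, which encodes a peptide of the calcitonin family, fell from between 10.3 and 11.7 CPM to between 4.34 and 5.36 CPM (-1.15, adjusted p = 4.7e-04). CDH2, which encodes N-cadherin, stood at 8.10, 8.92 and 5.96 CPM in siCtrl and at 2.67, 4.11 and 3.38 CPM in siCDO1C (-1.18, adjusted p = 0.00409). TGFBR2, a receptor for TGF-beta, fell from between 5.53 and 6.21 CPM to between 2.06 and 3.56 CPM (-1.14, adjusted p = 0.00599), a call that was lost without siCtrl replicate 3 (adjusted p = 0.0537). The other 11 genes kept their calls under every alternative fit. Without siCDO1C replicate 2 all 12 passed, which the rule of naming required, with -1.42 for SLC7A11, -1.43 for GPR27 and -1.34 for CDH2, for example. TGFB2 and its receptor gene TGFBR2 thus stood at opposite ends of the ranking.

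**Figure D2:**
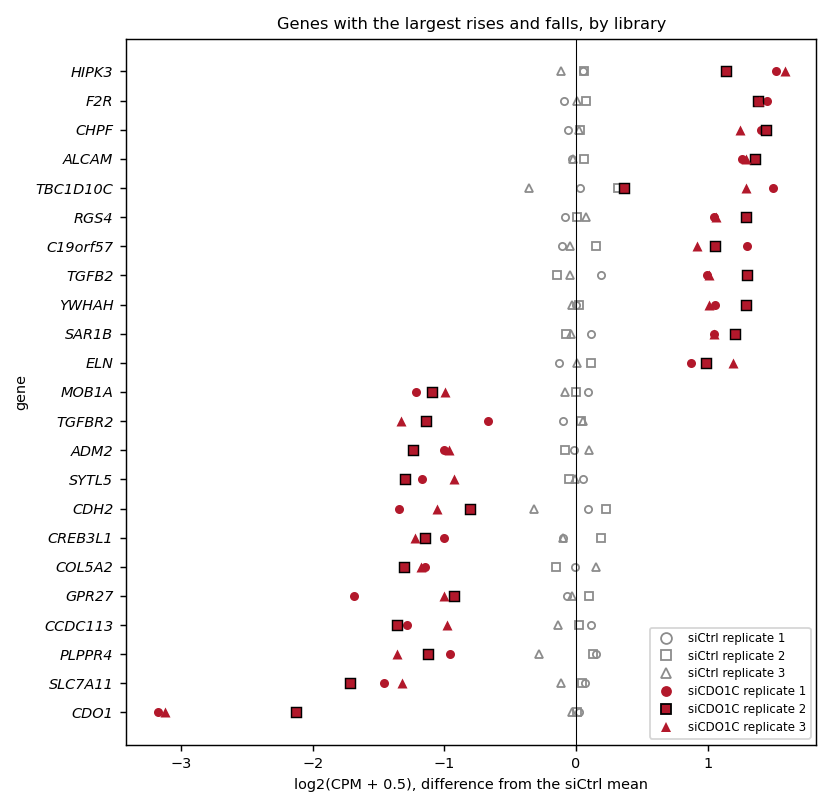
For 11 of the 12 genes with the largest rises and the 12 with the largest falls, each symbol is 1 library, placed by its difference from the siCtrl mean on log2(CPM + 0.5), with siCtrl open and siCDO1C filled and replicate 2 outlined in black. The siCDO1C symbols lie outside the siCtrl symbols in every row, which the choice of the genes required. Only for TBC1D10C does replicate 2 (2.97 CPM) come next to a siCtrl library (2.87 CPM).

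The 3′UTR matches were then counted over all tested genes with an annotated 3′UTR. These sequences had come up in earlier work on the same libraries, so that the shares describe the data and test nothing. GCAGTACA was in the 3′UTR of 51 of 328 genes higher with siCDO1C (15.5%), of 3 of 362 genes lower (0.829%) and of 173 of 12275 genes not called (1.41%). Without siCDO1C replicate 2, it was in 82 of 981 higher genes (8.36%) and 8 of 944 lower genes (0.847%). ACATCAA showed the opposite order, in 89 of 362 lower genes (24.6%), 31 of 328 higher genes (9.45%) and 1204 of 12275 genes not called (9.81%). Without replicate 2 it was in 180 of 944 lower genes (19.1%). CATCAAA was in 27.9% of lower genes, 10.1% of higher genes and 12.4% of genes not called, and TACATCA in 18.5%, 12.2% and 8.93%. Genes with a match have longer 3′UTRs, with a median of 3491 bases for GCAGTACA and 3336 for ACATCAA, against 1346 over all genes. The compared classes differ in length too, with a median of 2088 bases in lower genes, 1595 in higher genes and 1323 in genes not called.

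The 227 genes with GCAGTACA had a median log2 fold change of 0.15 (0.17 without siCDO1C replicate 2), and 73.6% of them were above 0. The median of the genes without GCAGTACA was 0.00. When genes were divided by the length of the 3′UTR, the medians with and without GCAGTACA were 0.23 and 0.03 up to 755 bases (9 genes with a match), 0.27 and 0.00 up to 2186 bases (42 genes) and 0.09 and -0.04 above (176 genes). The median was higher with a match in each length class. The 1324 genes with ACATCAA had a median of -0.05 (-0.03 without siCDO1C replicate 2). In the same length classes their medians were -0.07, -0.07 and -0.05, against 0.04, 0.00 and -0.03 for genes without ACATCAA. With only the 6 inner bases of GCAGTACA required, 2830 genes matched and the median was 0.01. A match says nothing of binding, and without the siRNA sequences its part in the changes was not tested.

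**Figure D3:**
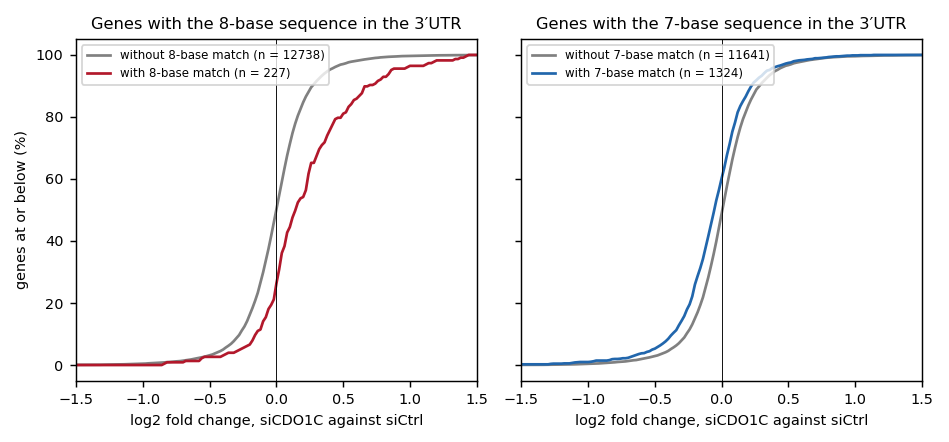
Cumulative share of genes (vertical, in percent) at or below a log2 fold change of siCDO1C against siCtrl (horizontal), for genes whose 3′UTR holds the 8-base sequence that starts with GCAG (left) or the 7-base sequence that starts with ACAT (right) and for genes without it in gray. The curve of the 227 genes on the left lies to the right of the gray curve over nearly its whole length, with a median of 0.15, and that of the 1324 genes on the right lies slightly to the left, with a median of -0.05.

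Most of the changed genes of protein folding in the ER fell with siCDO1C. Of 26 ER chaperones and J-proteins tested, 9 fell and 1 rose, against 2.50% and 2.27% of all genes, and the median log2 fold change of the list was -0.23, against 0.00 over all genes. HSPA5, the ER HSP70 also called BiP, stood at 1582, 1595 and 1609 CPM in siCtrl and at 1008, 1207 and 1064 CPM in siCDO1C (log2 fold change -0.55, standard error 0.0752, adjusted p = 6.6e-04). HSP90B1, the ER HSP90, went from 2052, 2080 and 2065 CPM to 1348, 1712 and 1433 CPM (-0.47, standard error 0.0831, adjusted p = 0.00396). Both are among the most abundant messages of these cells, and in both replicate 2 lay between the other siCDO1C libraries and siCtrl. MANF, a secreted stress factor that binds BiP, fell by 0.58 and DNAJC3, a BiP co-chaperone, by 0.54 (adjusted p = 0.00105 for each). DNAJB9, DNAJB11, DNAJC10, CRELD2 and PPIB fell by 0.36 to 0.53. SEC63, a J-protein of the translocation channel, was the member that rose (0.41, adjusted p = 0.0214). Without replicate 2, 14 of the 26 fell and 1 rose (57.7%, against 13.3% of all genes called), with a median of -0.24. With 1 other library left out the members called numbered at least 5 (without siCtrl replicate 1).

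The lectin chaperones of the calnexin cycle, which hold glycoproteins until they are folded, included 2 abundant genes that fell. CALR, calreticulin, stood at 1832, 1958 and 1952 CPM in siCtrl and at 1349, 1419 and 1325 CPM in siCDO1C (-0.50, standard error 0.068, adjusted p = 7.0e-04). CANX, calnexin, went from 2322, 2345 and 2141 CPM to 1792, 1786 and 1923 CPM (-0.31, standard error 0.0707, adjusted p = 0.0187), a call that was lost without siCtrl replicate 1, 2 or 3 or siCDO1C replicate 1 (adjusted p up to 0.147). The libraries of both genes separated by group, as they did in all 742 changed genes. MLEC, a lectin for early glycans, fell by 0.41 (adjusted p = 0.00349), and MOGS, the glucosidase that trims them first, rose by 0.38 (adjusted p = 0.0136). In all 3 of 14 genes of the list fell and 1 rose (28.6%, against 4.77% of all genes), with a median of -0.19. Without replicate 2 it was 6 and 1 (50%, against 13.3% of all genes called). The members called numbered 2 without any 1 siCtrl library or siCDO1C replicate 1.

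Of 23 protein disulfide isomerases and ER oxidases, 6 fell and 0 rose by edgeR and by DESeq2, with 1 higher at an unadjusted p below 0.05, and the median was -0.19. The 6 genes are 26.1% of the list, against 4.77% of all genes called. PDIA6 went from 332, 351 and 346 CPM to 242, 251 and 250 CPM (-0.48, adjusted p = 8.1e-04). AGR2, an isomerase of secretory epithelia, went from 284, 297 and 312 CPM to 168, 236 and 181 CPM (-0.62, adjusted p = 0.00318). QSOX1, a sulfhydryl oxidase, fell by 0.52 (adjusted p = 0.00471), and PDIA4, P4HB and ERP27 were the other members that fell. Replicate 2 matched its partners in PDIA6 and stood above them in AGR2. Without replicate 2, 12 of the 23 fell (52.2%, against 13.3% of all genes called), and without siCtrl replicate 1 or 2 or siCDO1C replicate 1 it was 3.

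**Figure D4:**
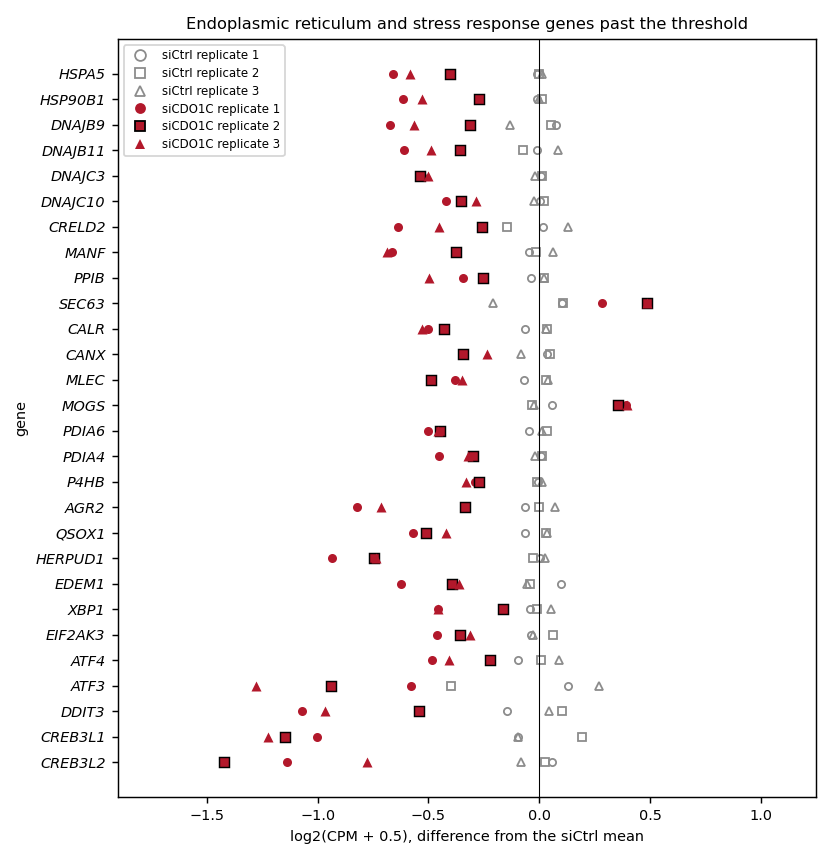
A selection of the genes of ER folding, degradation and the unfolded protein response that passed the threshold, each library placed by its difference from the siCtrl mean on log2(CPM + 0.5), with siCtrl open, siCDO1C filled and replicate 2 outlined in black. Of the genes plotted, SEC63 and MOGS lie to the right of siCtrl and the rest to the left. Not plotted were UBE2G2 and CREBZF, which rose, and EDEM2, OS9, MAP3K5 and ERP27, which fell, so the directions shown follow in part from the selection. For HSPA5 (1207 CPM), HSP90B1 (1712 CPM), MANF (109 CPM) and DDIT3 (15.1 CPM) replicate 2 lies nearer to siCtrl than its partners.

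Stress sensors and transcription factors of the unfolded protein response were among the genes that fell. Of 32 of its regulators tested, 8 fell and 1 rose (28.1%, against 4.77% of all genes), with a median of -0.14. Without replicate 2, 14 fell and 2 rose (50%, against 13.3% of all genes called). DDIT3, the stress factor CHOP, stood at 20.0, 23.9 and 22.9 CPM in siCtrl and at 10.3, 15.1 and 11.1 CPM in siCDO1C (-0.88, standard error 0.14, adjusted p = 0.00203). CREB3L2, another ER-bound factor of the ATF6 kind, went from 98.7, 96.7 and 89.4 CPM to 42.8, 35.1 and 55.1 CPM (-1.11, standard error 0.129, adjusted p = 4.3e-04). Both kept their calls under every alternative fit, as CREB3L1 did. ATF4, the factor of the integrated stress response, went from 379, 407 and 430 CPM to 289, 347 and 305 CPM (-0.38, adjusted p = 0.0136), and its call was lost without siCtrl replicate 2 or 3 or siCDO1C replicate 1 (adjusted p up to 0.109). XBP1 (-0.36), EIF2AK3 (the sensor PERK, -0.39), MAP3K5 (-0.45) and ATF3 (-1.12, at no more than 4.35 CPM) also fell, and CREBZF rose by 0.35. The sensor ERN1 stood at -0.35 with an adjusted p of 0.0521. With 1 library other than replicate 2 left out, at least 4 members were called (without siCtrl replicate 3).

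Among 40 genes of ER-associated degradation, 4 fell and 1 rose (12.5%, against 4.77% of all genes), with a median of -0.06. HERPUD1, which assembles the degradation complex, went from 132, 129 and 134 CPM to 68.6, 78.2 and 78.9 CPM (-0.81, standard error 0.0769, adjusted p = 2.0e-05). EDEM1, a mannosidase of this pathway, fell by 0.47 (adjusted p = 0.00599, and 0.0673 without siCtrl replicate 1), EDEM2 and OS9 also fell, and UBE2G2 rose. With the batch number as a block, 3 of these 5 calls held, and 1 member was called without siCtrl replicate 1. Without siCDO1C replicate 2, 11 were lower and 2 higher (32.5%, against 13.3% of all genes called). Of 25 genes of the COPII coat and ER exit, 4 fell (SEC24D, TMED9, TMED10 and SURF4) and 2 rose (SAR1B and SEC24A). The share called was 24%, against 4.77% of all genes, and the median was -0.14. SEC24D, a cargo adaptor, went from 72.3, 77.2 and 75.6 CPM to 48.9, 44.9 and 52.1 CPM (-0.63, adjusted p = 4.7e-04), whereas SEC24A rose by 0.47 (adjusted p = 0.00603). These adaptors of the same coat moved in opposite directions. Of the list, 3 members were called without any 1 siCtrl library. Without siCDO1C replicate 2, 3 were higher and 8 lower (44%, against 13.3% of all genes called).

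Of 36 genes of the translocon and the oligosaccharyl transferase, which bring proteins into the ER and glycosylate them, 7 fell and 1 rose. This is 22.2% called, against 4.77% of all genes, and the median was -0.16. SPCS3, a subunit of the signal peptidase, went from 73.6, 78.8 and 73.3 CPM to 43.9, 53.0 and 50.5 CPM (-0.62, standard error 0.0868, adjusted p = 7.8e-04). SSR3, TRAM1, STT3B, RPN1, DDOST and MAGT1 fell by 0.26 to 0.34, and SEC61A2 rose. These calls were fragile apart from SPCS3, in fits that also called fewer of all genes (from 272 to 634, against 742). With the batch number as a block 3 members were called, and 1 was called without siCtrl replicate 1 or 2 or siCDO1C replicate 1 or 3. Without replicate 2, 17 fell and 1 rose (50%, against 13.3% of all genes called).

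Genes that ATF4 is known to induce, amino acid synthesis included, formed the next list. Of 27 tested, 5 fell (PSAT1, SESN2, SLC6A9, NUPR1 and XPOT) and 0 rose by edgeR and by DESeq2, with 0 higher at an unadjusted p below 0.05, and the median was -0.20. The 5 genes are 18.5% of the list, against 4.77% of all genes called. NUPR1, a stress-induced chromatin protein, stood at 180, 186 and 202 CPM in siCtrl and at 143, 162 and 131 CPM in siCDO1C (-0.39, adjusted p = 0.0141). Of 23 aminoacyl-tRNA synthetase genes, AARS, CARS, MARS, SARS and WARS fell by 0.26 to 0.44 and VARS rose by 0.35 (adjusted p = 0.0174). The synthetases called make 26.1% of their list, against 4.77% of all genes. VARS went from 134, 138 and 153 CPM to 195, 177 and 174 CPM. As over all genes, where 742 calls became 263 to 279 without 1 siCtrl library, the calls of both lists depended on single libraries. They numbered 0 for ATF4 targets without siCtrl replicate 1, 2 or 3 or siCDO1C replicate 1, and 0 for the synthetases without siCtrl replicate 1 or 2, where edgeR compared 3 libraries with 2. Without siCDO1C replicate 2 they numbered 9 for each list (33.3% and 39.1%, against 13.3% of all genes called). With the batch number as a block 2 synthetases were called, against 6.

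The changed genes of cystine import and glutathione all fell. Of 24 tested, 4 (16.7%, against 4.77% of all genes) were called, SLC7A11, GSR, SLC1A4 and CHAC1, and 0 rose by edgeR and by DESeq2, with 1 higher at an unadjusted p below 0.05, and the median was -0.03. GSR, glutathione reductase, stood at 80.2, 85.2 and 74.6 CPM in siCtrl and at 33.6, 43.4 and 37.2 CPM in siCDO1C (-1.08, standard error 0.0973, adjusted p = 1.5e-05). SLC1A4, a carrier of neutral amino acids, went from 63.5, 64.8 and 69.8 CPM to 42.9, 44.3 and 47.2 CPM (-0.57, adjusted p = 9.2e-04). SLC3A2, the partner subunit of SLC7A11, stood at 85.6, 83.4 and 96.0 CPM and at 66.4, 79.7 and 66.7 CPM (-0.33, adjusted p = 0.0504), and without replicate 2 it was lower (-0.42, adjusted p = 1.0e-04). GCLC and GCLM, the subunits of the enzyme that starts glutathione synthesis, passed only without replicate 2 (adjusted p = 0.00356 and 0.0123), and GPX4, the glutathione peroxidase that reduces lipid peroxides, stood at 0.09 and -0.03 in the fits with and without it. Without replicate 2, 8 genes of the list were lower (33.3%, against 13.3% of all genes called) and the median was -0.11.

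Of 28 NRF2 targets and thioredoxin genes, TXNRD1, ME1, ABCC3 and PIR fell (14.3%, against 4.77% of all genes called), and the median was -0.06. By edgeR and by DESeq2 0 were higher, also at an unadjusted p below 0.05. The members called numbered 2 without siCtrl replicate 3 and 7 without siCDO1C replicate 2 (25%, against 13.3% of all genes). TXNRD1, thioredoxin reductase, stood at 496, 486 and 484 CPM in siCtrl and at 363, 351 and 371 CPM in siCDO1C (-0.44, standard error 0.0669, adjusted p = 0.00131). ABCC3, an exporter of conjugates, went from 8.57, 8.44 and 8.57 CPM to 4.04, 3.50 and 5.03 CPM (-1.04, adjusted p = 0.00244). Both separated fully from siCtrl, as every changed gene did. PIR, an iron-binding protein, fell by 0.62 (adjusted p = 0.00798, and 0.0757 without siCtrl replicate 3). Of the 13 other genes of cysteine oxidation, taurine and sulfide, 0 passed by edgeR or by DESeq2, and 0 had an unadjusted p under 0.05. ADO, the other thiol dioxygenase, stood at 49.1, 46.9 and 51.4 CPM and at 53.7, 55.3 and 52.7 CPM (0.13, adjusted p = 0.439). SLC6A6, the taurine transporter, showed the split of the siCDO1C libraries, at 59.8, 34.8 and 57.0 CPM against 40.8, 38.3 and 42.4 CPM in siCtrl, and it was higher only without replicate 2 (0.52, adjusted p = 1.3e-05).

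Every changed gene of DNA replication rose. Of 56 genes of replication licensing and the fork, edgeR called 11 higher and 0 lower and DESeq2 13 and 0, while unadjusted p-values under 0.05 were reached by 28 higher genes and 1 lower gene. By edgeR 19.6% of the list were called, against 4.77% of all genes. The median log2 fold change was 0.21, against 0.00 over all genes. The 11 genes were MCM4, MCM5, MCM10, CDT1, CDC45, CDC7, POLD1, POLD3, POLE2, FEN1 and DNA2. MCM4, a subunit of the replicative helicase, stood at 319, 308 and 305 CPM in siCtrl and at 402, 423 and 409 CPM in siCDO1C (0.40, standard error 0.067, adjusted p = 0.00299). POLD3, a subunit of DNA polymerase delta, went from 18.0, 16.6 and 16.1 CPM to 25.1, 29.4 and 24.1 CPM (0.63, standard error 0.109, adjusted p = 0.00363). These 2 kept their calls under every alternative fit, and replicate 2 was the highest library for both. In single libraries the median of the list was 0.17, 0.30 and 0.17 in siCDO1C replicates 1, 2 and 3. Without replicate 2, 22 genes were higher (39.3%, against 13.3% of all genes called) and the median was 0.17. The count was 7 with the batch number as a block and 2 without siCtrl replicate 2 or 3.

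Changed genes of mitosis and the spindle went both ways. Of 56 tested, KIF11 and KIF20A rose, AURKA, TOP2A and HMMR fell, which is 8.93% against 4.77% of all genes, and the median was -0.04. HMMR, a spindle protein, stood at 59.9, 61.3 and 55.0 CPM in siCtrl and at 40.7, 47.3 and 40.1 CPM in siCDO1C (-0.47, adjusted p = 0.00687), and the motor KIF11 went from 104, 97.0 and 95.8 CPM to 124, 126 and 132 CPM (0.36, adjusted p = 0.00932). Both lost their calls without siCtrl replicate 2, HMMR also without siCtrl replicate 1 or siCDO1C replicate 1 and KIF11 without siCtrl replicate 3 (adjusted p up to 0.0872). Of the list, 0 genes were called by edgeR without siCtrl replicate 2, and without siCDO1C replicate 2, 4 were higher and 8 lower (21.4% in all, against 13.3% of all genes).

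**Figure D5:**
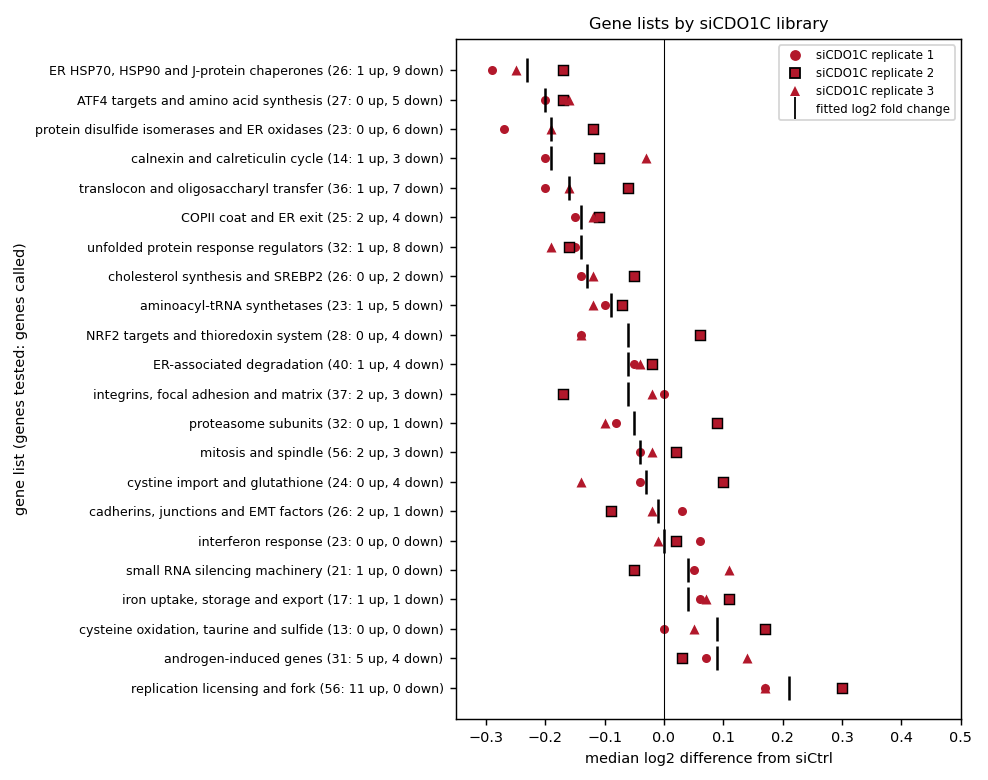
Median log2 difference from the siCtrl mean over the tested genes of each list (horizontal, on log2(CPM + 0.5)) in siCDO1C replicates 1, 2 and 3, with the median of the fitted log2 fold changes as a bar and the number of genes tested and called beside each list. The ER and stress response lists lie left of 0 in all 3 libraries, replication lies right of 0 in all 3, and replicate 2 lies on the other side of 0 from both partners for 5 lists, such as cystine and glutathione (0.10), NRF2 targets (0.06) and proteasome (0.09).

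Androgen-induced genes moved both ways. Of 31 tested, 5 rose, KLK4, SLC45A3, PTGER4 and ADAMTS1 among them, and KLK3, STEAP4, HERC3 and FOLH1 fell, and the median was 0.09. In all 29% of the list were called, against 4.77% of all genes. KLK4, a prostate kallikrein, stood at 65.6, 66.6 and 70.5 CPM in siCtrl and at 115, 92.1 and 104 CPM in siCDO1C (0.61, standard error 0.0882, adjusted p = 9.2e-04). KLK3, which encodes PSA, moved against it, from 36.2, 38.9 and 46.1 CPM to 28.9, 31.4 and 30.3 CPM (-0.43, adjusted p = 0.0243), and its call was lost without siCtrl replicate 2 or 3 or siCDO1C replicate 1 or 3 (adjusted p up to 0.149). TMPRSS2, a protease whose promoter drives ERG in this line, stood at 116, 118 and 119 CPM and at 130, 134 and 134 CPM (0.17, adjusted p = 0.20), so that its groups did not overlap although the change was not past the threshold. ADAMTS1, a matrix protease, rose by 0.53 (adjusted p = 8.1e-04), and STEAP4, a metalloreductase, fell from between 17.1 and 17.5 CPM to between 8.43 and 10.6 CPM (-0.83, adjusted p = 0.00114). Without siCDO1C replicate 2, 11 of the list were higher and 9 lower (64.5%, against 13.3% of all genes called), while 5 were called without siCtrl replicate 2.

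Markers of luminal prostate epithelium were abundant in both groups. The luminal prostate markers summed to between 6424 and 6573 CPM in siCtrl and to between 6763 and 6926 CPM in siCDO1C. Of the 10 luminal markers, 1 rose, and KLK3 and FOLH1 fell (30% called, against 4.77% of all genes). Without siCtrl replicate 3, 0 of the 10 were called, and without siCDO1C replicate 2 it was 5 (50%, against 13.3% of all genes). Of other cell types, the endothelial markers summed to no more than 2.81 CPM in any of the 6 libraries and the leukocyte markers to no more than 3.22 CPM, and 1 gene of each list had enough reads to be tested. Among the 8 fibroblast and smooth muscle markers, of which 4 were tested, LUM and ACTA2 were lower, from between 15.5 and 18.3 CPM to between 11.2 and 14.1 CPM and from between 1.64 and 2.17 CPM to between 0.617 and 0.913 CPM (adjusted p = 0.0498 and 0.0371 by edgeR), while DESeq2 called 0 of this list, as edgeR did without any 1 library other than siCDO1C replicate 2. The 5 basal markers, of which 2 were tested, summed to between 175 and 211 CPM and to 238, 153 and 231 CPM, and 0 of them passed by edgeR or DESeq2, with KRT14 higher at an unadjusted p below 0.05, while DST was higher by edgeR without siCDO1C replicate 2 (0.28, adjusted p = 0.00132). Of the 6 neuroendocrine markers CHGB was lower (-0.29, adjusted p = 0.0454, and 0.0856 with the batch number as a block). Of this list edgeR called 0 without any 1 siCtrl library or siCDO1C replicate 1. The share called was 50% of the 4 fibroblast and smooth muscle markers tested and 16.7% of the neuroendocrine markers, against 4.77% of all genes. Both shares were the same without siCDO1C replicate 2, against 13.3% of all genes.

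Of 26 cadherin, junction and EMT genes tested, ALCAM and PKP3 rose and CDH2 fell (11.5%, against 4.77% of all genes called). Without siCDO1C replicate 2, 6 were called (23.1%, against 13.3% of all genes), and without siCtrl replicate 1 or 2 it was 2. PKP3, a desmosomal plakophilin, went from 161, 161 and 178 CPM to 215, 223 and 209 CPM (0.37, adjusted p = 0.0079), and its call was lost without siCtrl replicate 1 or 2 (adjusted p up to 0.0887). Of 37 integrin, focal adhesion and matrix genes, F2R and TLN1 rose and ITGB1, ITGB8 and SDC4 fell (13.5%, against 4.77% of all genes called). TLN1, talin, which links integrins to actin, stood at 155, 152 and 149 CPM in siCtrl and at 296, 222 and 308 CPM in siCDO1C (0.85, standard error 0.104, adjusted p = 3.2e-04), so that replicate 2 rose less than its partners. Its 3′UTR also holds GCAGTACA, as does that of POLD3, which rose and holds ACATCAA and CATCAAA as well. Of other genes that rose, UBE2G2 holds CATCAAA and ADAMTS1 TACATCA. Of genes that fell, CREB3L2, SPCS3, MLEC and STEAP4 hold ACATCAA, whereas HSPA5 and CALR hold none of these sequences. With the batch number as a block, the calls of F2R and TLN1 held and those of the 3 lower genes did not, which left 2 of 5, as did leaving out any 1 library other than siCDO1C replicate 2, without which 8 were called (21.6%, against 13.3% of all genes). The study itself singled out HIPK3, F2R, CHPF, ALCAM, SLC7A11, CDH2, UBTFL1 and TMEM254-AS1 in these libraries, so their values here are no independent evidence. It also measured most of them by RT-qPCR, which is not examined here, and its primers for UBTFL1 and F2R are printed as the same pair. UBTFL1 was higher by 1.85 (from no more than 1.19 CPM, adjusted p = 0.00212) and TMEM254-AS1 by 1.36 (from no more than 3.66 CPM, adjusted p = 8.1e-04). UBTFL1 belongs to a family of similar genes and TMEM254-AS1 is antisense, and both are uncertain, because the sources used here do not give how strand and reads with several matches were handled in counting.

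Among 17 iron genes, STEAP3, the ferric reductase of endosomes, rose from between 15.8 and 18.3 CPM to between 27.4 and 29.1 CPM (0.72, adjusted p = 8.0e-04) and STEAP4 fell. That makes 11.8% called, against 4.77% of all genes. TFRC, the transferrin receptor, stood at 0.23 (adjusted p = 0.0693) and passed without replicate 2 (0.25, adjusted p = 4.8e-04), when 3 genes were higher and 3 lower (35.3%, against 13.3% of all genes called). DESeq2 called 4 of the 17. Of 26 genes of cholesterol synthesis, INSIG1 and TM7SF2 fell (7.69%, against 4.77% of all genes called), and the median was -0.13. INSIG1, which retains the SREBP precursors in the ER, went from 453, 443 and 433 CPM to 312, 379 and 345 CPM (-0.37, adjusted p = 0.0123), a call that was lost without any 1 siCtrl library and without siCDO1C replicate 1 (adjusted p up to 0.106). TM7SF2 was not called with the batch number as a block (adjusted p = 0.0758). Without replicate 2 the list had 1 higher and 8 lower genes (34.6%, against 13.3% of all genes called). The list had 0 called genes without any 1 siCtrl library or siCDO1C replicate 1. Of 32 proteasome subunits, PSMD14 fell (-0.49, adjusted p = 0.00765), which makes 3.12% called, against 4.77% of all genes. It lost its call without siCtrl replicate 2 or 3 or siCDO1C replicate 1 (adjusted p up to 0.0654), whereas 6 subunits (18.8%, against 13.3% of all genes called) were lower without siCDO1C replicate 2. Of 23 interferon response genes, 0 passed by edgeR or DESeq2, and 1 higher and 1 lower gene had an unadjusted p below 0.05, while OAS3 was higher without siCDO1C replicate 2. Of 21 genes of small RNA silencing, AGO4 alone passed (4.76%, against 4.77% of all genes). AGO4 went from 32.5, 25.0 and 24.3 CPM to 41.9, 34.9 and 38.7 CPM (0.49, adjusted p = 0.025, up to 0.156 without siCtrl replicate 2 or 3 or siCDO1C replicate 1 or 3), and its 3′UTR holds GCAGTACA at 2 places. AGO2, the argonaute that cuts, was at 203, 136 and 202 CPM against 163, 145 and 147 CPM, and it was higher only without replicate 2 (0.42, adjusted p = 3.8e-06), when 5 genes of the list were higher and 3 lower (38.1%, against 13.3% of all genes called).

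Among protein-coding genes with a mean of at least 5 CPM in the higher group, those with the largest changes of the genes called only without replicate 2 still had low levels. ATP2B2, a calcium pump, stood at 2.81, 2.15 and 3.29 CPM in siCtrl and at 5.89, 2.59 and 6.68 CPM in siCDO1C, which gave 1.17 without replicate 2 (adjusted p = 3.4e-04) and 0.85 with it (adjusted p = 0.141). ABCA1, the cholesterol exporter, was at 11.6, 6.85 and 10.1 CPM against 6.31, 7.25 and 4.84 CPM (0.84 without replicate 2, adjusted p = 7.3e-04). In both genes replicate 2 lay among the siCtrl libraries. RIMS1, a protein of synaptic release sites, was at 3.91, 6.39 and 3.96 CPM against 5.89 to 7.95 CPM (-0.82 without replicate 2, adjusted p = 0.0049), and its replicate 2 lay among the siCtrl libraries too. CNIH2 differed from these, since its replicate 2 was the highest siCDO1C library, at 7.76 CPM beside 3.70 and 5.2 CPM. CCDC83 and AC126755.2 had log2 fold changes of -0.88 and 1.30 without replicate 2. The 2 genes of at least 5 CPM called only with replicate 2, POLE2 and GABBR2, lay close to the threshold both ways, with adjusted p of 0.0482 and 0.0464 with it and 0.0606 and 0.0522 without it.

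The siCDO1C libraries were also set against the siCDO1A libraries, without siCtrl. In this test 69 genes differed, 0.444% of the genes tested, and among the genes named above 9 did, all lower with siCDO1C than with siCDO1A. SLC45A3, a prostate transporter, was higher than in siCtrl with siCDO1C and was at 220, 224 and 238 CPM with siCDO1C and at 328, 301 and 303 CPM with siCDO1A (-0.46, adjusted p = 0.0114), against 166 to 181 CPM in siCtrl. MOB1A was at 107, 97.3 and 112 CPM with siCDO1A and at 52.8, 57.4 and 61.6 CPM with siCDO1C (-0.89, standard error 0.091, adjusted p = 1.5e-04). GSR had a mean of 73.2 CPM with siCDO1A and differed by -0.95 (standard error 0.102, adjusted p = 1.5e-04), GPR27 was at 12.6, 11.3 and 11.7 CPM with siCDO1A (-1.31, standard error 0.186, adjusted p = 0.00213), and SLC7A11 at 24.2, 23.3 and 28.0 CPM (-0.80, standard error 0.126, adjusted p = 0.0043). Against siCtrl, the log2 fold changes of MOB1A, GSR and GPR27 with siCDO1A were -0.22, -0.13 and 0.05, beside -1.11, -1.08 and -1.27 with siCDO1C. CCDC113, CREB3L2, ADM2 and DDIT3 differed by -0.94, -0.66, -0.83 and -0.68 (adjusted p = 0.0138, 0.0393, 0.0291 and 0.0496). Of the 30 genes with a 3′UTR that were lower with siCDO1C than with siCDO1A, 17 hold ACATCAA (56.7%), 19 CATCAAA (63.3%) and 10 TACATCA (33.3%), against 10.2%, 12.7% and 9.28% of all genes. Of the 38 genes that were higher, 13.2%, 18.4% and 18.4% hold them. The median 3′UTR was 2552 bases in the lower and 2178 in the higher genes, against 1346 over all genes. For GCAGTACA the values of both siRNAs were close, with a median log2 fold change against siCtrl of 0.15 with siCDO1C and 0.14 with siCDO1A, which share the siCtrl libraries, and a median of 0.01 for siCDO1C against siCDO1A. Over the 1324 genes with ACATCAA the medians were close too, at -0.05, -0.04 and -0.01 in the same order. Without siCDO1C replicate 2, 447 genes differed between the siRNAs, and with 1 other library left out from 18 to 42 did. With the batch number as a block the count was 121.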

How the data were processed

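The deposited RNA-seq values are raw counts of reads per gene, without normalization. Per the methods and the labels, poly(A) RNA was made into directional libraries, read from both ends and counted with featureCounts, and the submitters' processing notes name HISAT2 2.0.5, CASAVA and hg38. In the table, 3 columns match no sample and were not used. Genes were kept by filterByExpr (minimum count 10, 9 libraries), and siCDO1C was tested against siCtrl, and against siCDO1A, on 6 libraries each with the TMM method and the robust quasi-likelihood test of edgeR 4.0.16 in R 4.3.3, with Benjamini-Hochberg adjustment over all 15555 genes. Standard errors are the log2 fold change divided by the root of F. DESeq2 1.42.0 and other settings were alternatives, and the scripts were tested on simulated data. The members, gene lists and sequences were chosen with earlier results of these data known. The genes named are those of a list of 14, most of them named by the study, CDO1, the 12 largest rises and falls called with and without siCDO1C replicate 2 (protein-coding, a mean of at least 5 CPM in the higher group, groups apart), the 3 smallest adjusted p per list, and up to 4 genes per direction whose call depends on replicate 2. Other called list members were named after their values were seen. A few genes that meet the rule, and a list that holds some of them, are not reported here. The 3′UTRs came from 1 transcript per gene of GENCODE 44 on GRCh37, searched on the transcript's strand for whole matches. As the labels give batch numbers, these pair the libraries. Same-numbered siCtrl and siCDO1C libraries had correlations of their deviations from the group means of 0.0527, -0.00729 and -0.277 (numbers 1, 2 and 3, across 11337 genes, which are not replicates), and the batch entered only as an alternative block.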

Additional observations from a re-analysis of the deposited data

Results flagged for a closer look

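In 9 genes named in the report, siCDO1C and siCDO1A differed past the threshold in the direct fit of their 6 libraries by edgeR, which is what marks them for a closer look. SLC45A3 (-0.46, adjusted p = 0.0114) was named after its values were seen, and the other 8 by the rule of naming. The log2 differences of these 8 (siCDO1C minus siCDO1A) were -1.31 for GPR27, -0.95 for GSR, -0.94 for CCDC113, -0.89 for MOB1A, -0.83 for ADM2, -0.80 for SLC7A11, -0.68 for DDIT3 and -0.66 for CREB3L2. GPR27, GSR and MOB1A passed with each of the 6 libraries left out in turn (adjusted p up to 0.0404, 0.0104 and 0.00739). SLC7A11 passed in 5 of 6 (adjusted p up to 0.0877), CCDC113, ADM2 and CREB3L2 in 2 and DDIT3 in 1. All 8 passed without siCDO1C replicate 2 and with the batch number as a block. The groups of 3 libraries are too small for a test of single outlying libraries.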

How the results depend on the processing

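At an adjusted p of 0.01, 282 genes were changed, 138 higher and 144 lower. With 1 library left out, the genes changed ranged from 263 to 2068, those higher from 125 to 1054, those lower from 131 to 1014, and those different between the siRNAs from 18 to 447, where the highest counts were all reached without siCDO1C replicate 2. Between the siRNAs, DESeq2 gave 104 genes and the replicate block 121, against 69. The replicate block kept 634 genes changed against siCtrl, 585 of them shared with the 742. The other settings (DESeq2, 1 fit of 9 libraries, RLE factors, no filter, a minimum of 10 counts throughout, protein-coding genes alone) gave from 745 to 1020. With the 6 inner bases of GCAGTACA in place of the whole, the median log2 fold change was 0.01, and the other 3′UTR medians and the reduction of CDO1 (85.8% to 91.9%) moved by less than the spread between libraries. Of the 78 named genes past the threshold, 48 kept the call under every alternative and 0 changed direction. The replicate block ended the calls of AARS, UBE2G2, DDOST, TM7SF2, SDC4 and POLE2 and of no other of the 78. With 3 libraries against 3, an exact test of a single value cannot go below p = 0.1.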
